A study of Mus musculus with 6 samples.

Results

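The Gimap genes examined here are the 8 members named Gimap1, Gimap3, Gimap4, Gimap5, Gimap6, Gimap7, Gimap8 and Gimap9, which lie side by side on mouse chromosome 6. They were taken by name from an abundance table of 37315 genes and an allele table of 19402 genes, and all 8 are in both tables. The family was chosen by the abundance of Gimap4, which was known to be far lower in 1 of the cell lines, and all named genes of the cluster were then taken whatever their own values. The abundance values below are therefore a description, without a p-value for any member. The allelic values were not used in choosing the members and were tested, although earlier results of these data were known by then. The cells were 3 clonal B cell lines made from F1 mice of the cross 129S1/SvImJ x CAST/EiJ and immortalised with the Abelson virus: Abl.2 (female), Abl.3 (male) and Abl.4 (female). Every line was kept in growth medium with 1% DMSO, the control condition of the study, and live cells were collected on day 2 after a density gradient. Each line is a single clone, measured in 2 library preparations, so an adjusted p-value here covers the spread between library preparations and not the spread between clones, animals or sexes. The 6 libraries held from 18362319 to 26881211 allelic counts, and the abundance table gives no read depth.

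Gimap genes encode GTPases of immunity-associated proteins, small GTP-binding proteins with an AIG1-type GTPase domain that are made mainly in lymphocytes and sit on internal membranes. The family is best known for setting how long T and B cells survive: animals that lack Gimap5 lose peripheral T cells, and Gimap1 is needed for mature T and B cells to persist. In an F1 hybrid, single-nucleotide differences between the parental genomes show from which allele a transcript came, so that the output of each gene copy can be followed in each clone.

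The cluster spans 123.618 kb, chr6:48647234-48770851 in the GRCm38 coordinates of the deposited tables. In order of position its genes are Gimap8, Gimap9, Gimap4, Gimap6, Gimap7, Gimap1, Gimap5 and Gimap3. Gimap6 and Gimap3 are on the minus strand and the other 6 on the plus strand. Gm28053, a readthrough gene, overlaps Gimap7, Gimap1 and Gimap5, and the antisense gene Gimap1os overlaps Gimap1. Of the exon bases of Gimap1, 36% lie in an exon of another gene, against 3.48% for Gimap7, 3.69% for Gimap5 and 0% for the remaining 5 members. The library kit does not mark strand, so reads of Gimap1 and Gimap1os cannot be told apart where the genes overlap. Gimap3 and Gimap5 are also alike in sequence: 7.52% of all 50-base runs of the Gimap3 transcripts also occur in Gimap5. The split of reads between them is therefore uncertain by an amount that was not measured, and this touches the low Gimap3 values of Abl.3 most, where Gimap5 was far more abundant.

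The promoter windows of 5 members are shown as examples of the patterns described below: Gimap4 and Gimap3 were far lower in Abl.3 than in the other lines, Gimap6 differed less, Gimap9 had the highest level in Abl.2 and close levels in the other lines, and Gimap7 was highest in Abl.3. The sequences are those of RefSeq on GRCm38.p6, in a window of 300 bases around the annotated start, written 5′ to 3′ on the strand of the gene, with every CpG dinucleotide in capitals. The windows are chr6:48684328-48684627 (plus strand) for Gimap4, chr6:48770802-48771101 (minus) for Gimap3, chr6:48708195-48708494 (minus) for Gimap6, chr6:48675885-48676184 (plus) for Gimap9 and chr6:48718371-48718670 (plus) for Gimap7.
Gimap4: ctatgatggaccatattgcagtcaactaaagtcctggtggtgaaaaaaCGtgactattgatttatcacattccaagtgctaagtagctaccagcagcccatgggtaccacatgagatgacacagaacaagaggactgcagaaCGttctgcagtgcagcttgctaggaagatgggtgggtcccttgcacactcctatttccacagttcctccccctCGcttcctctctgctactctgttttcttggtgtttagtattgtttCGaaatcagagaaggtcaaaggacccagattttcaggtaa
Gimap3: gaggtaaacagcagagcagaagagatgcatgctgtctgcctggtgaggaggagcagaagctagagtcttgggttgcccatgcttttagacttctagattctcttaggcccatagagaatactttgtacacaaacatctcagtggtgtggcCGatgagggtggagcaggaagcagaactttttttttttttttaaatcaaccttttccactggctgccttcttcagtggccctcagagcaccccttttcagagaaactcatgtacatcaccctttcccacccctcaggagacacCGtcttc
Gimap6: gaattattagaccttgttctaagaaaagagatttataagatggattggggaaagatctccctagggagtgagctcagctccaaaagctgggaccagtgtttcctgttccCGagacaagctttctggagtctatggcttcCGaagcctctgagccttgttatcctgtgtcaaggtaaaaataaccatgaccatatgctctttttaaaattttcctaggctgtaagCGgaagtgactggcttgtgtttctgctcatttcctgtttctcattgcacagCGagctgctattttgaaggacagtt
Gimap9: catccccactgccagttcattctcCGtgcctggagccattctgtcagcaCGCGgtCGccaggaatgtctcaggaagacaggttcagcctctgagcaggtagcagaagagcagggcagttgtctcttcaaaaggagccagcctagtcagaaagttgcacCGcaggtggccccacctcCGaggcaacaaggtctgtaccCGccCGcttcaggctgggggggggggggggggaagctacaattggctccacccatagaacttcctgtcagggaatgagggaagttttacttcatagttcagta
Gimap7: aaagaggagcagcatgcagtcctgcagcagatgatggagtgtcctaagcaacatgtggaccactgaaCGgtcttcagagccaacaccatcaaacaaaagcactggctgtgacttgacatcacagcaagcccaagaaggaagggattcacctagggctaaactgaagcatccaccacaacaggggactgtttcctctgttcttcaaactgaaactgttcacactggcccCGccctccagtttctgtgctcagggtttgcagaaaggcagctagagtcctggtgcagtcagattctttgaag

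Gimap4 and Gimap6 have 4 CpG dinucleotides in these windows, Gimap3 and Gimap7 have 2 and Gimap9 has 8. The median over 32851 RefSeq promoter windows of the same length was 7, and 68.6% of them held at least 4. All 8 members matched the RefSeq table, Gimap8 with 2 windows, so that 9 windows were searched. A search on both strands for letters typical of lymphocyte factors found the Runx letters TGTGGT in 3 of the 9 windows (16.8% of all promoters), those of Gimap4, Gimap7 and Gimap1. The Ets letters GGAAGT were in 4 windows (23.8% of all promoters), those of Gimap9, Gimap6, Gimap1 and Gimap5. The interferon regulatory factor letters GAAACT were in 4 windows (15.8%), the Tcf/Lef letters CTTTGA in 2 (16.0%) and the Ikaros letters TGGGAA in 1 (25.6%). In the Gimap4 window the Runx letters began at base 106 and the Tcf/Lef letters at base 276, counted from its 5′ end. In none of the 9 windows did a match of 1 motif overlap that of another, and a match of 6 letters is a description, not a binding site.

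Gimap4, which is linked to the timing of lymphocyte death, showed the widest gap between the lines. Its abundance in TPM (a gene's transcripts as a part of all transcripts of the library, with their length taken into account) was 242 and 278 in the 2 Abl.2 libraries, 3.52 and 3.03 in Abl.3, and 173 and 182 in Abl.4. Abl.3 stood far below both other lines and no libraries overlapped, while Abl.2 was also above Abl.4. The mean level was 79.4-fold higher in Abl.2 and 54.3-fold higher in Abl.4 than in Abl.3. On the scale of log2(TPM + 1) the difference was 5.93 between Abl.2 and Abl.3 (SE 0.105) and 0.54 between Abl.2 and Abl.4. As a part of the summed Gimap TPM (mean ± SD, n = 2), Gimap4 made up 24.6% ± 2.8 in Abl.2 and 18.9% ± 1.4 in Abl.4, but 0.625% ± 0.025 in Abl.3.

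Gimap3 and Gimap5, relatives that carry a membrane anchor, were both lowest in Abl.3 but to different degrees. Gimap3 had 15.1 and 19.3 TPM in Abl.2, 1.34 and 0.36 in Abl.3, and 11.0 and 10.7 in Abl.4. It had the second widest gap of the family, 20.3-fold between Abl.2 and Abl.3 and 12.7-fold between Abl.4 and Abl.3, at levels where a few reads move the Abl.3 value. With replicate 1 of Abl.3 alone these folds were 12.9 and 8.07, and with its replicate 2 alone 47.8 and 30.1. Gimap5, whose loss shortens the life of T cells, had 138 and 134 TPM in Abl.2, 66.9 and 66.0 in Abl.3, and 116 and 117 in Abl.4. Its libraries kept the order Abl.2, Abl.4, Abl.3 without overlap, and its log2 difference between Abl.2 and Abl.3 was 1.02 (SE 0.069). The share of Gimap5 in the family sum was similar in value in every line, from 12.4% in Abl.4 to 12.8% in Abl.2.

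Gimap6, which binds an autophagy protein of the GABARAP group, had 266 and 269.8 TPM in Abl.2, 161 and 149.7 in Abl.3, and 301 and 286 in Abl.4. It was again lowest in Abl.3, but here Abl.4 was the highest line, by 0.13 on the log2 scale over Abl.2 (SE 0.074). With summed allelic counts Abl.2 minus Abl.4 was -0.043. Gimap1 was the most abundant member in Abl.3, with 316 and 248 TPM in Abl.2, 235 and 195 in Abl.3, and 288 and 245 in Abl.4. The SD of Gimap1 between the Abl.2 libraries was 47.9 TPM, and its log2 difference of 0.38 between Abl.2 and Abl.3 has an SE of 0.15. That difference was 0.21 without replicate 1 of Abl.2, 0.25 without replicate 2 of Abl.3 and 0.22 with summed allelic counts. The difference between Abl.3 and Abl.4, -0.31, was -0.18 without replicate 2 of Abl.3, -0.19 without replicate 1 of Abl.4 and -0.16 with summed allelic counts. Its Abl.2 and Abl.4 libraries overlapped, and the small difference of 0.07 between those lines changed sign without replicate 1 of Abl.2 (-0.10) or replicate 2 of Abl.4 (-0.042).

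Gimap9 had 89.8 and 94.6 TPM in Abl.2, 71.6 and 75.2 in Abl.3, and 70.9 and 68.5 in Abl.4. Unlike the members above, it was lowest in Abl.4, and Abl.3 was above Abl.4 by 0.07 on the log2 scale (SE 0.077). That value was 0.18 under quantile normalisation, 0.031 with summed allelic counts, 0.038 without replicate 2 of Abl.3 and 0.048 without replicate 2 of Abl.4. Gimap8, a longer protein with more than 1 GTPase domain, was scarce: 2.84 and 3.17 TPM in Abl.2, 0.82 and 1.19 in Abl.3, and 2.5 and 2.99 in Abl.4. Its Abl.2 and Abl.4 libraries overlapped, and their order turned over when the summed allelic counts were used in place of TPM, with a log2 difference of -0.19 against 0.10. In the other settings it lay between 0.0042 without replicate 1 of Abl.4 and 0.33 under quantile normalisation.

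Gimap7, a member that can stimulate GTP hydrolysis by its relatives, ran the other way. It had 2.06 and 1.11 TPM in Abl.2, 6.47 and 8.06 in Abl.3, and 4.09 and 5.31 in Abl.4. Abl.3 was its highest line and Abl.2 its lowest, without overlap, with log2 differences of -1.69 for Abl.2 minus Abl.3 and 0.54 for Abl.3 minus Abl.4 (SE 0.23). The latter rose to 0.85 once the libraries were quantile normalised, and edgeR on the summed counts of both alleles gave 1.59. Gimap7 lies between Gimap6 and Gimap1, genes that were lowest in Abl.3, so the order of the lines was not the same along the cluster.

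**Figure D1:**
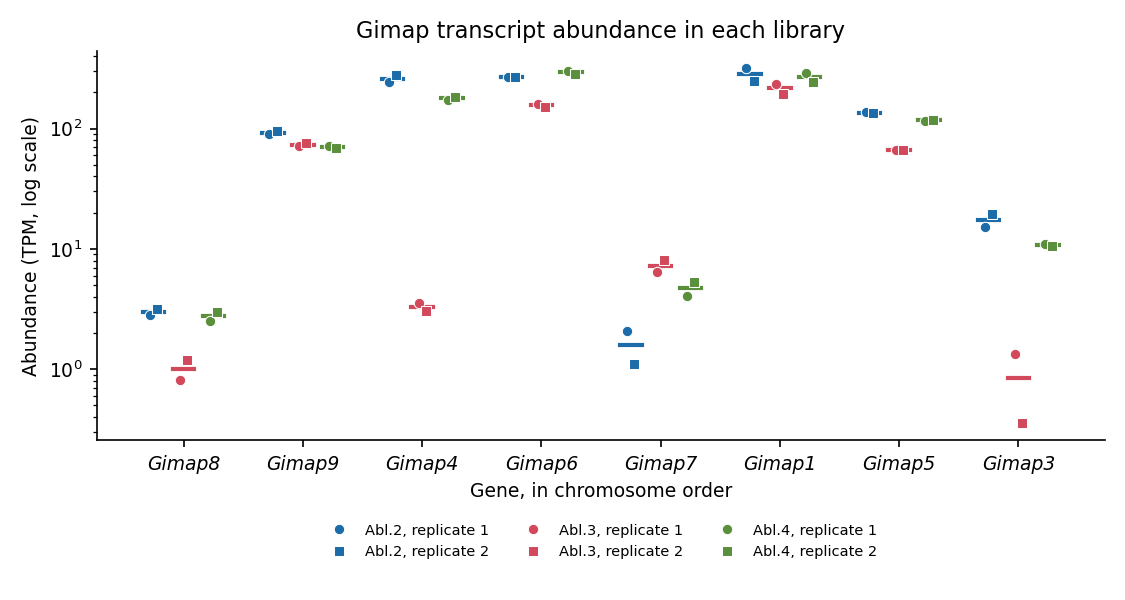
Abundance of the 8 Gimap genes in each library, in TPM on a log axis, with genes in order of position along chromosome 6; each point is 1 library (circles replicate 1, squares replicate 2) and the short line is the mean of the 2 libraries of a cell line. Gimap4 lies at 173 TPM or more in Abl.2 and Abl.4 and at 3.52 or less in Abl.3, and Gimap7 is the gene whose Abl.3 points lie on top.

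Across the family, 7 of the 8 members were higher in both Abl.2 libraries than in both Abl.3 libraries, and Gimap7 was the exception. Among the 11003 genes whose mean reached 1 TPM, 44.6% were higher in Abl.2 in this way and 28.7% in Abl.3. A log2 difference of at least 1 between Abl.2 and Abl.3 was seen in 5 members, against 11.1% of all genes, but that contrast was known when the family was chosen. Gimap8 (1.00, or 1.51 with a pseudocount of 0.1) and Gimap5 (1.02) sit at that limit, and quantile normalisation left 3 members past it and edgeR on summed allelic counts 4. The median log2 difference was 0.89 over the members and 0.10 over all genes tested. Between Abl.3 and Abl.4, 6 members were higher in Abl.4 (46.4% of all genes) and 2 in Abl.3 (23.5%), and Gimap4 and Gimap3 differed by at least 1 (10.1% of all genes). Summed allelic counts gave 4 such members and a pseudocount of 0.1 gave 3. In this pair, too, the low level of Gimap4 in Abl.3 was known when the family was chosen. The median there was -0.85 over the members against -0.15 over all genes. Between Abl.2 and Abl.4, 4 members were higher in Abl.2 (31.6% of all genes), 2 in Abl.4 (35.7%) and 2 overlapped, with a median of 0.16 against -0.03. That median was 0.27 under quantile normalisation, 0.078 with summed allelic counts and 0.24 without replicate 2 of Abl.2. Only Gimap7 differed there by at least 1, where 10.8% of all genes did, but it stayed under that limit after quantile normalisation (-0.92), with summed allelic counts (-0.95) and without replicate 2 of Abl.2 (-0.89). Every pair of lines shares its libraries with another pair, so these counts do not stand independently of each other.

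Summed over the 8 members (mean ± SD, n = 2), the family reached 1059 ± 16 TPM in Abl.2 and 943 ± 35 in Abl.4, against 523.1 ± 34 in Abl.3. The family sum was thus 2.03-fold higher in Abl.2 and 1.80-fold higher in Abl.4 than in Abl.3. Without Gimap4 the sums were 799, 519.8 and 765 TPM, and the ratios to Abl.3 were 1.54 and 1.47. What remained of the family in Abl.3 was made up mostly of Gimap1 (41.1% of the sum), Gimap6 (29.7%) and Gimap9 (14.1%). In bulk RNA, fewer cells with a transcript and less transcript per cell cannot be told apart.

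Scaling moved the median of all genes. For Abl.2 minus Abl.4 it was -0.027 as deposited and 0.031 after quantile normalisation. It was 0.10 for Abl.2 minus Abl.3 and -0.15 for Abl.3 minus Abl.4 as deposited, and -0.0028 and 0.025 once the libraries had been quantile normalised. That normalisation changed the direction of no member, and the use of allelic counts summed over both alleles changed it for Gimap8 alone, between Abl.2 and Abl.4.

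The lymphocyte identity of the cells was read from marker genes, listed with earlier results of these data known. All 11 listed B lineage markers reached a mean of 1 TPM, with summed levels of 13552 to 14000.5 TPM in Abl.2, 12636.2 to 13717.1 in Abl.3 and 13385 to 13437.9 in Abl.4. By limma with Benjamini-Hochberg adjustment, the pair Abl.2 and Abl.3 had 6 of them higher in Abl.2 and 1 in Abl.3 (25.9% and 14.0% of all genes). The pair Abl.2 and Abl.4 had 3 higher in each line (15.0% and 18.4%), and the pair Abl.3 and Abl.4 had 3 higher in Abl.3 and 6 in Abl.4 (11.3% and 26.8%). Pax5, the B cell identity factor, was lowest in Abl.3, at 56.2 and 64.0 TPM against 246 and 207 in Abl.2 and 156 and 165 in Abl.4. Rag1, a recombinase subunit of early B cells, was at 4.39 and 5.34 TPM in Abl.3, 22.0 and 24.6 in Abl.2, and 9.84 and 12.9 in Abl.4. Rag2, its partner subunit, ran the other way, at 43.4 and 46.5 TPM in Abl.3, 17.0 and 21.2 in Abl.2, and 23.6 and 26.3 in Abl.4. Cd22, an inhibitory receptor of B cells, set Abl.4 apart, with 23.3 and 21.3 TPM in Abl.2, 20.6 and 18.3 in Abl.3, and 100.03 and 84.7 in Abl.4. Igll1, a part of the surrogate light chain, had its highest mean in Abl.3, with 4125 and 4082 TPM in Abl.2, 5027 and 4508 in Abl.3, and 3755 and 3731 in Abl.4. Whether any of these has a part in the Gimap difference was not tested. Of 10 T cell markers, Cd3g, Cd4, Cd8b1 and Trat1 were listed at 0 in every library, and Cd3d, Cd3e and Cd8a were at most 0.07 TPM. The T cell sum was 3.02 to 4.46 TPM in Abl.2, 7.67 to 7.88 in Abl.3 and 9.42 to 11.16 in Abl.4. Lat was the highest of these markers in each library, and Cd28 had 1.05 and 1.15 TPM in Abl.4. Of 4 NK cell markers, Klrb1c had 14.1 and 16.1 TPM in Abl.2, 1.05 and 0.77 in Abl.3, and 5.48 and 6.83 in Abl.4. Ncr1 was listed at 0 in every library, and Prf1 and Gzma were at most 0.16 TPM. Whether T or NK cell transcripts have a part in the Gimap difference was not tested. The summed level of 5 myeloid markers was 158 to 193 TPM in Abl.2, 74.8 to 97.2 in Abl.3 and 77.9 to 89.4 in Abl.4, almost all of it Lyz2 in Abl.2 and Abl.3, with Adgre1 and Cd14 listed at 0 in every library. Itgam, the other of these markers with a mean of 1 TPM or more, was highest in Abl.4, with 0.51 and 0.35 TPM in Abl.2, 0.72 and 0.97 in Abl.3, and 6.89 and 6.74 in Abl.4. Of 3 endothelial markers Pecam1 alone passed 1 TPM. It was lowest in Abl.3, with 24.1 and 24.8 TPM in Abl.2, 18.4 and 18.04 in Abl.3, and 55.4 and 50.1 in Abl.4, and its part in the Gimap difference was not tested. The 3 erythroid markers summed to at most 0.69 TPM.

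The maternal share, the fraction of a gene's allelic counts assigned to the maternal allele, was tested within each line against equal counts. The test was made where both libraries of a line held at least 20 allelic counts, and the share of a single library is given also where the other held fewer. In the lines tested, depth ranged from 29 counts in a library for Gimap7 to 22979 for Gimap4. With edgeR's quasi-likelihood test and Benjamini-Hochberg adjustment over all autosomal and X-linked genes, imbalance was called for 5 of 7 members in Abl.2 (49.5% of 9252 genes), 3 of 6 in Abl.3 (45.7% of 9175) and 5 of 8 in Abl.4 (40.3% of 9370). Nothing is read from these counts beyond the genes themselves. Parent of origin, parental strain and read mapping were not separated, so what lies behind a lean shared by the lines was not tested. With the members left out, the median maternal share on chromosome 6 was 0.497 (405 genes, Abl.2), 0.504 (393 genes, Abl.3) and 0.498 (403 genes, Abl.4).

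Gimap4 leaned to the maternal allele in Abl.2 and Abl.4 and to the paternal allele in Abl.3. In Abl.2 its maternal share was 0.622 (10693 of 17196 counts) and 0.645 (14815 of 22979), in Abl.4 0.568 (6317 of 11123) and 0.555 (6855 of 12352). In Abl.3, where the gene was at 3.52 TPM or less, it was 0.462 (103 of 223) and 0.239 (49 of 205), with 95% Wilson intervals of 0.398 to 0.527 and 0.186 to 0.302 that do not overlap. The intervals take each count as independent and are too narrow if reads over several SNPs counted more than once. The mean of 0.350 ± 0.16 (SD, n = 2) had the widest SD among the members and lines with a measured share. By edgeR with Benjamini-Hochberg adjustment the imbalance was called in each line, with adjusted p-values of 7.26e-05, 0.0166 and 0.0174 for Abl.2, Abl.3 and Abl.4. Without replicate 2 of Abl.3 the Abl.3 call was lost (adjusted p 0.403), without replicate 1 of Abl.4 the Abl.4 call was lost (0.0889), and DESeq2 called neither these nor Abl.2 (0.0648, 0.535 and 0.0933).

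The share of Gimap4 differed between Abl.2 and Abl.3 by 0.283, a log2 ratio of 1.65 between the allele ratios, with an adjusted p of 0.000668 by edgeR with Benjamini-Hochberg adjustment. Between Abl.3 and Abl.4 the difference was -0.211 (log2 ratio -1.22, adjusted p 0.00943 by the same edgeR test). All Abl.3 libraries lay below all libraries of the other lines. Without replicate 2 of Abl.3 the log2 ratios were smaller, 1.01 for Abl.2 minus Abl.3, which stayed called by edgeR, and -0.58 for Abl.3 minus Abl.4, which was no longer called (adjusted p 0.0665). A limma fit of the per-library log ratio called neither (adjusted p 0.0713 and 0.204), nor did that fit with the replicate number as a block (0.0942 and 0.236). Multiplying each library's TPM by its share gives the level of each allele: 165 TPM maternal and 95.1 paternal in Abl.2, 99.8 and 78.0 in Abl.4, and 1.18 and 2.10 in Abl.3. Both alleles of Gimap4 were thus low in Abl.3, the maternal 140.3-fold and the paternal 45.3-fold below Abl.2. The maternal fold depends on the Abl.3 library: it was 101 with replicate 1 alone and 228 with replicate 2 alone, against 50.2 and 41.3 for the paternal allele.

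Gimap6 was transcribed from both alleles with a small lean to the paternal allele in Abl.2 and Abl.4. Its maternal share was 0.438 and 0.427 in Abl.2, 0.486 and 0.508 in Abl.3, and 0.469 and 0.453 in Abl.4, on 7071 to 17417 counts in a library. The 3 lines did not overlap, with Abl.3 the closest to 0.5. Imbalance was called by edgeR with Benjamini-Hochberg adjustment in Abl.2 (adjusted p 2.75e-05) and Abl.4 (0.00217) and not in Abl.3 (0.768). The difference between Abl.2 and Abl.3 was -0.064 (log2 ratio -0.37, adjusted p 0.000955 by edgeR), and limma on the log ratio did not call it (0.0623, and 0.121 with the replicate number as a block). In TPM of each allele, Gimap6 reached 116, 77.2 and 136 from the maternal copy and 152, 78.3 and 158 from the paternal copy, in Abl.2, Abl.3 and Abl.4 in that order. Both copies were lowest in Abl.3, the paternal one by the larger ratio, 1.94-fold below Abl.2 against 1.5-fold for the maternal.

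Gimap1 was near balance in Abl.2 and Abl.4 and leaned to the maternal allele in Abl.3. Its maternal share was 0.486 and 0.471 in Abl.2, 0.553 and 0.557 in Abl.3, and 0.489 and 0.478 in Abl.4, on 2738 to 4616 counts. Both Abl.3 libraries lay above all others. The edgeR test with Benjamini-Hochberg adjustment called Abl.3 imbalanced (adjusted p 0.00244) and neither Abl.2 (0.124) nor Abl.4 (0.274), except that Abl.2 was called (0.00724) when the null was set at the allele totals of the line. The share in Abl.3 differed from Abl.2 by 0.077 (Abl.2 minus Abl.3: log2 ratio -0.44, adjusted p 0.00296) and from Abl.4 by 0.071 (log2 ratio 0.41, adjusted p 0.00929), both by edgeR. The comparison of Abl.2 and Abl.3 was lost under the replicate block (limma, adjusted p 0.0622). The comparison of Abl.3 and Abl.4 was lost without replicate 2 of Abl.3 (edgeR, 0.0543) and by limma without and with the block (0.0667 and 0.129). From the maternal copy Gimap1 reached 135, 119 and 129 TPM in Abl.2, Abl.3 and Abl.4, and from the paternal copy 147, 95.9 and 138. The level of the paternal copy was 1.53-fold higher in Abl.2 than in Abl.3, against 1.13-fold for the maternal, while the SD of each was 13.2 to 25.9 TPM. Overlap with Gimap1os and Gm28053 leaves the origin of some of these counts uncertain, and Gm28053 itself had mean maternal shares of 0.265, 0.346 and 0.274 in Abl.2, Abl.3 and Abl.4.

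Thus Gimap4, Gimap6 and Gimap1 were the members whose allelic share differed between Abl.2 and Abl.3, 3 of the 5 that could be compared, where 28.4% of 8846 genes differed. Between Abl.3 and Abl.4 it was Gimap4 and Gimap1, 2 of 6, against 17.1% of 8889 genes. Gimap6 had an adjusted p of 0.0522 by edgeR between Abl.3 and Abl.4, for a share difference of 0.036. Limma on the log ratio called 1 member and 0 members in these pairs, and 0 in both with the replicate block. Between Abl.2 and Abl.4 the edgeR test called 0 of 7 members, against 22.3% of 8924 genes. There 2 members, Gimap4 and Gimap6, had an unadjusted p under 0.05, and DESeq2 called 0. The adjusted p of Gimap4 in that comparison was 0.0566 by edgeR, for a share difference of 0.072. It was called when either Abl.3 library was left out of the shared fit (0.00157 and 0.00159), and Gimap6 was called there with the null at the allele totals (0.00399).

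**Figure D2:**
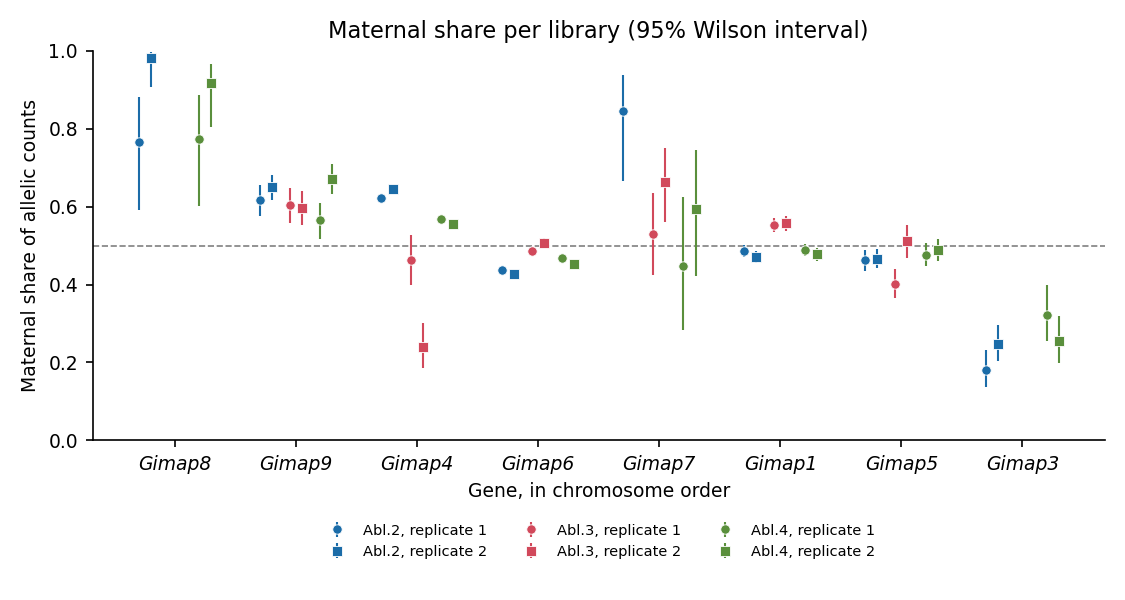
Maternal share of each Gimap gene in each library with at least 20 allelic counts; bars are 95% Wilson intervals, which cover counting error only, and the dashed line marks equal counts. The Abl.3 points of Gimap4 lie at 0.462 and 0.239, below every Abl.2 and Abl.4 point of that gene, and those of Gimap1 lie above.

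Gimap9 leaned to the maternal allele in every line. Its share was 0.616 and 0.650 in Abl.2, 0.603 and 0.597 in Abl.3, and 0.565 and 0.672 in Abl.4, on 441 to 811 counts. The ranges of Abl.4 and the other lines overlapped, and no difference between lines was called (edgeR, adjusted p 0.639 to 0.902). Imbalance was called in Abl.2 (0.00307), Abl.3 (0.022) and Abl.4 (0.0092) by edgeR with Benjamini-Hochberg adjustment. These calls were lost without replicate 2 of Abl.2 (0.078), without either Abl.3 library (0.147 and 0.124) and without replicate 2 of Abl.4 (0.225).

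Gimap3 leaned to the paternal allele in both lines that could be measured. Its maternal share was 0.180 and 0.247 in Abl.2 and 0.323 and 0.255 in Abl.4, on 161 to 336 counts. The libraries of the lines did not overlap, with Abl.2 the lower. Imbalance was called in both (edgeR with Benjamini-Hochberg adjustment, adjusted p 0.000249 and 0.0048), and in Abl.4 it was lost without replicate 2 of that line (0.0835). The difference between the lines was not called (edgeR, adjusted p 0.429). Neighbouring Gimap5, on the opposite strand, was near balance on 525 to 1734 counts, with mean shares of 0.465, 0.456 and 0.482 in Abl.2, Abl.3 and Abl.4. Its Abl.3 libraries stood apart at 0.402 and 0.510, and no Gimap5 imbalance was called by edgeR with all libraries (adjusted p 0.177 to 0.595), while Abl.3 was called (0.0203) without its replicate 2. Both alleles of Gimap5 were lower in Abl.3 than in Abl.2 by a like ratio of means, 2.08-fold for the maternal and 2.01-fold for the paternal. The Abl.3 libraries behind those means differed, with 26.9 TPM maternal and 40.0 paternal in replicate 1 and 33.7 and 32.3 in replicate 2.

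Gimap8, and Gimap7 in Abl.2 and Abl.4, were near the limit of 20 counts, while Gimap7 had 81 and 92 counts in Abl.3. Gimap8 had a maternal share of 0.767 and 0.982 in Abl.2 and 0.774 and 0.917 in Abl.4, on 30 to 57 counts. In Abl.3 its libraries fell below the limit, and all 15 and all 16 of their counts were maternal. The paternal count of 0 there allows a paternal share of up to 20% and 18.8%. The edgeR call of Gimap8 in Abl.2 (adjusted p 0.0173) was lost without replicate 2 of Abl.2 (0.298). Its edgeR call in Abl.4 (adjusted p 0.0453) was lost without any 1 of the Abl.3 and Abl.4 libraries (0.0505 to 0.331), with a minimum of 10 counts (0.0516) and with DESeq2 (0.0861). Gimap7 had 26 and 12 counts in Abl.2, so that a single library passed, with a share of 0.846. Its share was 0.531 and 0.663 in Abl.3 and 0.448 and 0.594 in Abl.4, and neither imbalance was called (edgeR, adjusted p 0.343 and 0.88). Gimap3 in Abl.3 had 16 and 5 counts and was not tested.

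**Figure D3:**
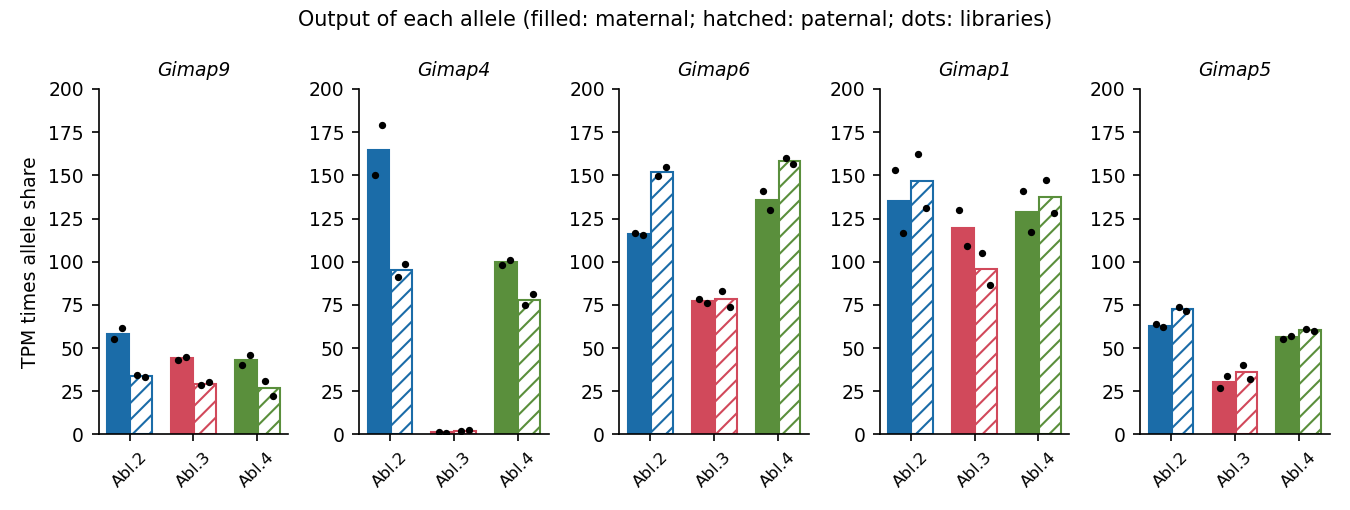
Level of the maternal (filled bars) and the paternal (hatched bars) allele of 5 Gimap genes in each line, as TPM times the allelic share, on a linear axis from 0; bars are means of the 2 libraries and dots are the libraries. The alleles of Gimap4 average 1.18 and 2.10 TPM in Abl.3, and both alleles of Gimap5 and Gimap6 are lower there than in Abl.2 and Abl.4.

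In the authors' deposited table of allelic imbalance, Gimap4 had a maternal share of 0.63 in Abl.2 with an interval of 0.61 to 0.65. For Abl.3 the authors' deposited table gives 0.36 with an interval of 0.16 to 0.57, which includes equal shares, and for Abl.4 0.56 with 0.53 to 0.59. For Gimap6 the authors' deposited table gives 0.43 (0.41 to 0.45), 0.50 (0.46 to 0.53) and 0.46 (0.43 to 0.49) in the same order. For Gimap1 in Abl.3 the authors' deposited table gives 0.55 with an interval of 0.50 to 0.61, with equal shares at its edge. For Gimap3 the authors' deposited table gives 0.22 (0.10 to 0.37) in Abl.2 and 0.29 (0.07 to 0.55) in Abl.4, and the latter interval includes equal shares. For Gimap9 the authors' deposited table gives 0.64 (0.53 to 0.74), 0.60 (0.45 to 0.74) and 0.62 (0.46 to 0.78) in Abl.2, Abl.3 and Abl.4, with equal shares inside the last 2 intervals. The authors' deposited table holds no estimate for Gimap8 in any line.

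Around the cluster, 31 genes that are not members start within 0.5 Mb, 27 of them are in the abundance table, and 13 of those are listed at 0 in every library. With limma and Benjamini-Hochberg adjustment, 10 could be tested; over all genes, 39.8% were called for Abl.2 minus Abl.3, 33.5% for Abl.2 minus Abl.4 and 38.1% for Abl.3 minus Abl.4. Of the neighbours, 3 were higher in Abl.2 and 2 in Abl.3 in that pair (25.9% and 14.0% of all genes). Genes on the Gimap8 side include Repin1 and Zfp775, both zinc finger genes with their highest level in Abl.2 like Gimap9. Lrrc61 had its lowest libraries in Abl.3 and its highest mean in Abl.4 like Gimap6, but limma called none of its differences. Repin1 had 29.9 and 22.9 TPM in Abl.2, 14.5 and 10.6 in Abl.3, and 13.2 and 11.0 in Abl.4, so that Abl.3 and Abl.4 overlapped. On the Gimap3 side, Tmem176b, a membrane protein of immune cells, was highest in Abl.3, with 7.11 and 8.61 TPM in Abl.2, 24.3 and 19.9 in Abl.3, and 10.0 and 10.9 in Abl.4. Its log2 difference was -1.38 for Abl.2 minus Abl.3 and 1.01 for Abl.3 minus Abl.4 (limma, adjusted p 0.000769 and 0.00316), in the direction of Gimap7 and against the other 7 members in the first pair. The 3 genes higher in Abl.2 than in Abl.3 were Repin1, Zfp775 and Tra2a, and the 2 lower were Tmem176b and Tmem176a. Between Abl.2 and Abl.4, Repin1 and Zfp775 were higher in Abl.2 (15.0% of all genes), Igf2bp3 in Abl.4 (18.4%), and 7 neighbours were not called. Between Abl.3 and Abl.4, Tmem176b and Tmem176a were higher in Abl.3 (11.3% of all genes) and Igf2bp3 in Abl.4 (26.8%).

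The neighbours also had allelic shares of their own. Repin1 was strongly maternal in every line (0.900, 0.948 and 0.953), and its share did not differ between lines by edgeR (adjusted p 0.403 to 0.913). Lrrc61, a gene on the same side, was almost wholly maternal in Abl.2 (0.934) and Abl.3 (1.00) and near balance in Abl.4 (0.487). In Abl.3, at 6.50 and 6.64 TPM, all its allelic counts were maternal, on at least 20 in each library. The paternal share that these counts would still allow was not estimated. The share of Lrrc61 differed in all 3 pairs by edgeR with Benjamini-Hochberg adjustment (adjusted p 0.0082, 0.000125 and 4.82e-05). Limma called no difference in its abundance (0.331, 0.241 and 0.0548). Tmem176b was maternal as well, at 0.860, 0.864 and 0.708. The Tmem176b share in Abl.4 differed from Abl.2 and Abl.3 by edgeR with Benjamini-Hochberg adjustment (adjusted p 0.00191 and 0.00149), and no difference was called between Abl.2 and Abl.3 (0.95). Zfp775 was nearer balance, at 0.586, 0.486 and 0.545. Its share differed between Abl.2 and Abl.3 (edgeR, adjusted p 0.00943) and not in the other pairs (0.327 and 0.161). Gm45021 (0.585, 0.489 and 0.421) and Gm44965 (0.685, 0.642 and 0.564) had no called difference between lines by edgeR. Within the cluster the lean was of both kinds, maternal for Gimap9 and Gimap8 and paternal for Gimap3 and Gm28053, in the lines where they could be measured.

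**Figure D4:**
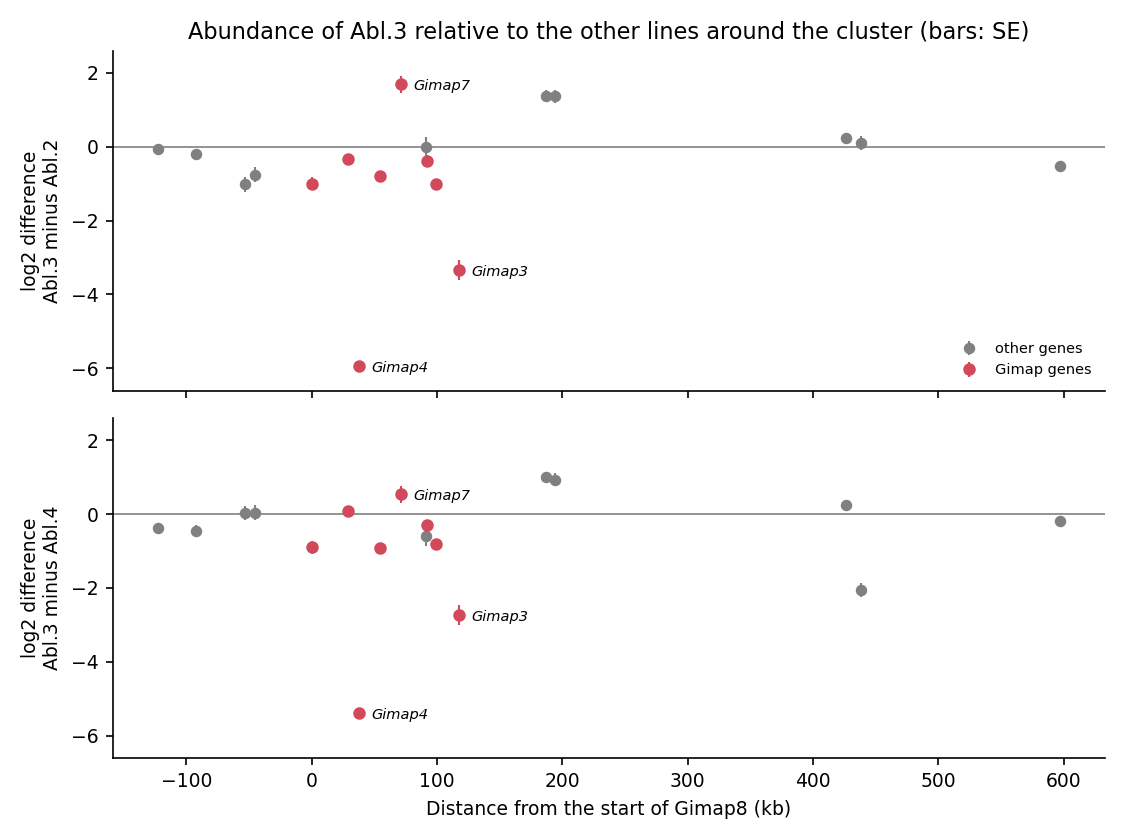
Fitted log2 difference in abundance of the Gimap genes (red) and of the neighbouring genes tested (grey), with bars for the SE, against distance from the start of Gimap8 in kb; the upper panel is Abl.3 minus Abl.2 and the lower panel Abl.3 minus Abl.4. Gimap4 and Gimap3 lie lowest in both panels, at -5.39 and -2.73 in the lower, while Gimap7 lies above 0 in both.

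The 5 genes whose abundance profile was nearest to the mean profile of the members were sought by Euclidean distance over the 6 libraries among 10994 other genes. They were Iqsec1 (distance 0.0681), Crybg1 (0.129), Filip1 (0.142), Kdm5c (0.143) and Dop1b (0.145). Iqsec1 had 20.7 and 19.6 TPM in Abl.2, 7.30 and 7.16 in Abl.3, and 18.7 and 19.2 in Abl.4. It is also on chromosome 6, chr6:90656088-90988685, far from the cluster, and the others are on chromosomes 10, 9, X and 16. Kdm5c, an X-linked gene known to escape X inactivation, had 107 and 99.4 TPM in Abl.2, 38.2 and 35.0 in Abl.3, and 89.4 and 99.4 in Abl.4. Abl.3, its lowest line, is the male line, and sex and clone cannot be told apart in any difference between Abl.3 and the other lines. Among the members, Gimap5 (distance 0.522), Gimap8 (0.541) and Gimap6 (0.618) lay nearest to the family mean, and Gimap4 (5.01) and Gimap7 (3.14) farthest. With a pseudocount of 0.1, 4 of the 5 genes were the same, and with Pearson correlation in place of distance, 1 was.

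Proteins reported to bind or act with GIMAP proteins, among them Bcl2 relatives, autophagy proteins and Wnt pathway kinases, were called in both directions. This list was drawn up with earlier results of these data known, so its calls are a description. Of 15 genes, 3 were higher in Abl.2 than in Abl.3 (25.9% of all genes), 4 lower (14.0%) and 8 not called (limma with Benjamini-Hochberg adjustment), with a median log2 difference of 0.03 against 0.10 over all genes, and of -0.042 once quantile normalised. Against Abl.4, 2 were higher in Abl.2 (15.0% of all genes) and 4 in Abl.4 (18.4%), and between Abl.3 and Abl.4, 1 was higher in Abl.3 (11.3% of all genes) and 5 in Abl.4 (26.8%). The 7 genes called between Abl.2 and Abl.3 became 4 without replicate 1 of Abl.2 and 2 without its replicate 2 or either Abl.3 library. The 6 called between Abl.2 and Abl.4 became 2 without either Abl.2 library and 3 without either Abl.3 library or replicate 2 of Abl.4. Map1lc3a, an autophagosome protein, moved most, with 3.68 and 2.94 TPM in Abl.2, 8.05 and 7.74 in Abl.3, and 18.4 and 19.8 in Abl.4. Its log2 difference was -2.23 between Abl.2 and Abl.4 (limma, adjusted p 7.33e-05). Bax, which promotes apoptosis, was highest in Abl.3, with 249 and 241 TPM in Abl.2, 321 and 321 in Abl.3, and 209 and 187 in Abl.4. Bcl2, its inhibitor, had 2.19 and 1.46 TPM in Abl.2, 3.52 and 3.29 in Abl.3, and 2.81 and 3.68 in Abl.4, and was called only between Abl.2 and Abl.3 (limma, adjusted p 0.039). Ctnnb1, the Wnt effector, was lowest in Abl.3 and highest in Abl.4, with a log2 difference of -0.67 between them (limma, adjusted p 0.00141).

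Other GTPases of cell-autonomous immunity, the interferon-inducible Irg, Gbp and Mx genes, were mostly highest in Abl.2. They too were listed with earlier results of these data known, so the calls describe the list and are not independent support. Of 12 genes tested, 11 were higher in Abl.2 than in Abl.3 (25.9% of all genes) and 1 was not called by limma with Benjamini-Hochberg adjustment. Against Abl.4, 9 were higher in Abl.2 (15.0% of all genes) and 3 not called, and the median log2 differences were 0.95 and 1.12. Between Abl.3 and Abl.4, where Gimap4 differed by -5.39, 4 were higher in Abl.3 (11.3% of all genes) and 1 in Abl.4 (26.8%), with a median of 0.06 against -0.15 over all genes. That median was 0.34 against 0.025 over all genes after quantile normalisation, and 0.34 against -0.021 with summed allelic counts. Those 5 calls became 2 without either Abl.3 library and 3 without either Abl.2 library or replicate 1 of Abl.4, and edgeR on summed allelic counts made 8. Irgm1, a regulator of these GTPases, had 238 and 264 TPM in Abl.2, 122 and 112 in Abl.3, and 64.1 and 67.5 in Abl.4. Tgtp2 had 33.2 and 41.9 TPM in Abl.2, 7.36 and 7.69 in Abl.3, and 4.40 and 4.10 in Abl.4, and shares near-identical sequence with Tgtp1, so that the split of reads between them is uncertain. Mx2 was likewise highest in Abl.2, with a log2 difference of 1.86 over Abl.4 (limma, adjusted p 0.000145). Gbp3, named after its values were seen, was the gene of this list that was higher in Abl.4 than in Abl.3. That difference of 0.53 on the log2 scale had an adjusted p of 0.00517 by limma.

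Septins, GTPases of the cytoskeleton whose fold is related to that of the GIMAP proteins, were called in 1 to 3 members a pair of lines. Like the other lists, they were chosen with earlier results of these data known, and their calls are a description. Of 7 tested, Sept9 alone was called between Abl.2 and Abl.3 by limma with Benjamini-Hochberg adjustment, higher in Abl.2 by 0.40 on the log2 scale (adjusted p 0.00765), where 25.9% of all genes were called in that direction. Sept7 and Sept8 were higher in Abl.4 than in Abl.2 (18.4% of all genes), and Sept8, Sept9 and Sept11 higher in Abl.4 than in Abl.3 (26.8%). The call of Abl.2 against Abl.3 was lost without replicate 1 of Abl.2 or replicate 2 of Abl.3, and 2 septins were called there without either Abl.4 library or under the replicate block. The 2 calls of Abl.2 against Abl.4 became 1 with any of the 6 libraries left out, and the 3 of Abl.3 against Abl.4 became 5 with the block. Sept8 had the widest gap, with 1.54 and 1.68 TPM in Abl.2, 1.20 and 1.61 in Abl.3, and 7.16 and 6.20 in Abl.4. None was lower in Abl.3 than in both other lines by a log2 difference of 1 or more, as Gimap4 and Gimap3 were.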

How the data were processed

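RNA from 3 lines with 2 library preparations each was read from 3 deposited tables. Per the file headers, the TPM values were made by the authors with DESeq2. The allelic counts are the authors' counts of the maternal and paternal allele at SNP positions within each gene, per the file headers, and a read over several SNPs may count more than once. The maternal fraction in the authors' deposited table is an average of replicates with intervals, per the file headers. STAR 2.5.4a, SAMtools, GATK and DESeq2 and the builds GRCm38, GRCh37 and mm10 are named, without roles, per the submitters' processing notes. Which parental strain is the maternal one, the gene annotation and the confidence level of the intervals are not given in the sources used here.

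From these files, abundance was fitted with limma 3.58.1 (R 4.3.3) with a trend on log2(TPM + 1), for genes with mean TPM of 1 or more, with all 6 libraries in a single fit; fold changes on this scale understate those of low genes. Alleles were compared with edgeR 4.0.16 (quasi-likelihood), each library having its own intercept and each line its own allele effect, for genes with 20 or more allelic counts in each library tested. P-values were adjusted by Benjamini-Hochberg over all genes tested at 0.05. DESeq2 1.42.0, other minimums, pseudocounts, scalings, a replicate block and leaving out each library were tried as alternatives. Wilson intervals (95%) and limits for a count of 0 (3 counts) cover counting error only.

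Positions are those of the deposited tables, and 98.7% of 35412 genes had the same start in GENCODE M21, which was used for exons and overlaps. Septin names had been turned into dates in the table and were matched by gene ID. The members and all gene lists were chosen with earlier results of these data known. Genes named in the text are the 8 members, other genes whose name starts with Gimap, genes starting within 0.5 Mb, the 5 nearest profiles, and up to 4 genes with the largest called difference from each list of reported partners, immunity GTPases and septins. Marker genes of the listed cell types are also named, and Gbp3 was named after its values were seen.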

Additional observations from a re-analysis of the deposited data

Results flagged for a closer look

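The maternal share of Gimap4 differed between cell lines under the same test: Abl.2 minus Abl.3 was 0.283 and Abl.3 minus Abl.4 was -0.211, by a test of the difference itself (edgeR quasi-likelihood with Benjamini-Hochberg adjustment, adjusted p 0.000668 and 0.00943). Both values rest on the Abl.3 libraries, with 223 and 205 allelic counts and shares of 0.462 and 0.239. The share of Gimap6 was lower in Abl.2 than in Abl.3 by the same test, with a difference of -0.0643 (edgeR, adjusted p 0.000955). The share of Gimap1 differed by -0.0766 for Abl.2 minus Abl.3 and by 0.0713 for Abl.3 minus Abl.4 (edgeR, adjusted p 0.00296 and 0.00929). With the replicate number as a block, limma on the per-library log ratio called none of these Gimap4, Gimap6 and Gimap1 differences. What lies behind these differences was not tested.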

How the results depend on the processing

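Of 421 refits of a member's allele ratio, 371 kept direction and call, 29 lost the call, 7 gained one and 14 reversed. The reversals were all in ratios that were not called. With the null at the allele totals, Abl.2 minus Abl.3 of Gimap5 was -0.041 and Abl.2 minus Abl.4 of Gimap9 -0.052 (log2). Leaving out each library in turn gave -0.081 to 0.044 for Gimap6 and -0.57 to 0.060 for Gimap5 in Abl.3, -0.30 to 0.54 for Gimap7 in Abl.4, and -0.26 to 0.37 for Gimap5 in Abl.2 minus Abl.3. It gave -0.86 to 3.04 (Gimap8), -0.24 to 0.42 (Gimap9) and -0.074 to 0.012 (Gimap1) in Abl.2 minus Abl.4, and -0.45 to 0.21 (Gimap9) and -0.47 to 0.16 (Gimap5) in Abl.3 minus Abl.4. Members called with 1 library left out numbered 3 to 5 for imbalance in Abl.2 and 2 to 5 in Abl.4, 0 to 1 for Abl.2 minus Abl.4 and 0 to 3 for Abl.3 minus Abl.4. DESeq2 called 3 members imbalanced in Abl.4, and the null at the allele totals 1 in Abl.2 minus Abl.4. Limma on the log ratio called 1 member in Abl.2 minus Abl.3 and 0 in Abl.3 minus Abl.4, where it called 891 genes against 1518 by edgeR; with the replicate number as a block these were 0, 0 and 652. Genes called for abundance numbered 4382, 3682 and 4194 in the 3 pairs, and 2466 to 4541, 1970 to 3296 and 2343 to 3691 with 1 library left out, with fewer samples in each fit. The median member difference of Abl.3 minus Abl.4 was -0.67 (log2) under quantile normalisation. Of 192 refits of a member's abundance difference, 46 moved by more than its SE. The causes were not tested. A filter on other genes cannot change a member's own abundance difference. Same-numbered libraries deviated together with correlations of 0.104, 0.187 and 0.161 over 11003 genes, but the labels name no shared batch and each line has only 2 libraries, so whether the numbers pair the libraries is not settled. Allelic depth was low for Gimap8 (15 to 57 counts in a library), for Gimap7 (12 to 92) and for Gimap3 in Abl.3 (16 and 5). Gimap4 had 223 and 205 counts in Abl.3, against 11123 or more in a library of the other lines.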
